A study of Homo sapiens with 12 samples.

Results

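The effect of the E2A knockout genotype on RNA was compared between day 15 and day 7 of the directed differentiation of the human embryonic stem cell line H7 into cardiomyocytes. Of the 12 libraries of the series, the 8 taken at days 15 and 7 were chosen by their labels. They form 4 groups of 2 libraries: E2A-/- cells at day 15, wild-type cells at day 15, E2A-/- cells at day 7 and wild-type cells at day 7. All 8 are labelled as cardiomyocytes derived from H7, and no other treatment or allele is named in the labels. Neither the position of the edit, nor the number of edited clones, nor the origin of the replicates is stated. Each p-value sets a difference against the spread of libraries within groups, pooled over the 4 groups and drawn towards a trend over all genes. That spread may therefore be technical only. The question was which genes caught up with the wild type between the days, which diverged from it and which reversed.

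E2A is the older name of TCF3, which belongs to the E proteins, transcription factors with a basic helix-loop-helix domain. These factors bind short DNA motifs called E-boxes as dimers, often with tissue-specific partners, and the ID proteins hold them off DNA by dimerising with them. Stem cells and early cardiac progenitors rely largely on glycolysis, and cardiomyocytes that mature in culture shift towards mitochondrial respiration while they build the sarcomere, the contractile unit of muscle.

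Differences of 3 kinds are given, all of log2(FPKM + 1), a scale that understates changes of genes with low values. The day 15 effect and the day 7 effect are the labelled knockout minus the wild type at that day. The interaction is the day 15 effect minus the day 7 effect, so a positive value means that the labelled knockout gained on the wild type between the days. Values of single libraries are FPKM, a level scaled by transcript length, with replicate 1 before replicate 2. Of 17096 listed genes, 16295 had at least 1 FPKM in at least 2 of the 12 libraries and were tested (LINC00624, whose second highest value was 1.00 FPKM, was just inside and CHRNB2, at 0.9997 FPKM, just outside).

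The FPKM of the 8 libraries summed to between 577716 and 700622, the r of replicates over genes ran between 0.97 and 0.989, and the depth behind the values is unknown. The 2 libraries labelled E2A-KO at day 15 varied most, with a pooled SD of 0.323 in log2 units where the other groups had 0.208 to 0.267. TCF3 itself (chromosome 19, 1609290 to 1652605, minus strand of GRCh38) had 169.7 and 108 FPKM in the labelled knockout and 74.3 and 98.2 FPKM in the wild type at day 15. At day 7 TCF3 had 179.9 and 172 FPKM in the labelled knockout and 135 and 138 FPKM in the wild type. Its day 15 effect was 0.66 (limma adjusted p = 0.0417), its interaction of 0.30 did not pass (SE 0.29, limma adjusted p = 0.485), and its mRNA was not lower at either day, so the groups are called the labelled knockout throughout and every direction rests on the labels. The 6 fixed cardiomyocyte markers were all present, and their summed level was 3640.02 and 2941 FPKM in the labelled knockout and 8502 and 9379 FPKM in the wild type at day 15. At day 7 that sum was 1156 and 1006 FPKM in the labelled knockout and 6056 and 6055 FPKM in the wild type. MYL7, its largest member in the wild type, had 1350 and 1204 FPKM in the labelled knockout and 5961 and 6584 FPKM in the wild type at day 15. At that day MYH6 was higher in the labelled knockout and NKX2-5 overlapped, while TNNT2, MYL7, ACTN2 and RYR2 were lower. The day 15 effects of MYH6, NKX2-5 and RYR2 did not pass. In bulk RNA, fewer cells of a type and less RNA per cell cannot be told apart. The 4 neural markers listed (SOX2, DCX, STMN2 and MAP2, of 6 fixed) summed to 63.2 and 79.4 FPKM in the labelled knockout and 13.1 and 14.7 FPKM in the wild type at day 15. At day 7 they summed to 201 and 191 FPKM in the labelled knockout and 23.4 and 24.9 FPKM in the wild type. SOX2 and MAP2 made up most of these sums. DCX, below 1 FPKM throughout, was higher in the labelled knockout at day 15 and lower at day 7. Every gene in the file is above 0 in all 12 libraries, so a level above 0 cannot show that a marker's cell type was present. The part of these other cell types in the results below was not tested.

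Between the days, genes of glycolysis and of the hypoxia response and the mitochondrially encoded transcripts traded places. Of 26 glycolysis and hypoxia genes 16 were higher in the labelled knockout at day 15 (16.5% of all genes tested were) and 24 were lower at day 7 (18.1% of all). All 13 mitochondrial transcripts were lower at day 15 (14.1% of all) and higher at day 7 (19.8% of all). Contractile and cardiac regulatory genes split, with MYH6, NKX2-5, HSPB7 and SLC8A1 closing their day 7 gap and TTN, DES, SYNPO2L and TNNI3 opening or widening one. Of 32 genes for ribosomal proteins 23 were higher in the labelled knockout at day 15 and 3 were lower at day 7. Several neural genes, SOX21 among them, lost much of their day 7 excess, while the interactions of SOX2 and the orphan nuclear receptor NR2F1 did not pass. Of 14 neural genes in the list 4 interactions were negative (13.1% of all genes tested were) and 2 positive (14.3% of all). The median effect of that list was 1.39 at day 15 and 1.51 at day 7.

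Of 16295 genes tested, 4476 (27.5%) had an interaction past an adjusted p of 0.05 with limma, 2338 of them (14.3%) positive and 2138 (13.1%) negative, and 3115 were at least 1 in size on the log2 scale. The genotype effect itself passed for 4987 genes (30.6%) at day 15 and 6176 (37.9%) at day 7. Counts of interactions in the gene lists below are to be read beside the shares of all genes: 27.5% passing, 14.3% positive and 13.1% negative. The count of interactions was 2334 without wild-type day 7 replicate 1, 2382 without wild-type day 7 replicate 2, 2867 and 2888 without wild-type day 15 replicates 1 and 2, and 2975 without replicate 2 of the labelled knockout at day 7. Positive interactions made up 52.2% of the passing genes, and 38.3% when the values were scaled to the sum of nuclear genes, a scaling that moved the median interaction of all genes by more than 0.1, to -0.18 in place of -0.01.

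The passing genes were sorted by the tests of each day. As the day 7 effect is part of the interaction, these classes are a description. In 2088 genes (12.8% of those tested) the day 7 effect passed and was gone or smaller at day 15, and these are called catching up: 1928 no longer passed at day 15 and 160 still passed in the same direction. Of the catching-up genes 992 had been lower in the labelled knockout at day 7 and 1096 higher. In 1447 genes (8.88%) an effect was new or larger at day 15, and these are called diverging: 875 were higher in the labelled knockout at day 15 and 572 lower. In 655 genes (4.02%) the effect passed at both days with opposite signs, and these are called reversing: 344 were higher in the labelled knockout at day 15 and lower at day 7, and 311 the other way round. A further 286 passed for the interaction with neither day effect past the threshold. A set of 1432 genes kept an effect of the same sign at both days with no passing interaction, and these are called persistent. Scaled to the sum of nuclear genes, catching-up genes numbered 663 from below and 1644 from above, and the reversing classes 257 higher and 466 lower at day 15.

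**Figure D1:**
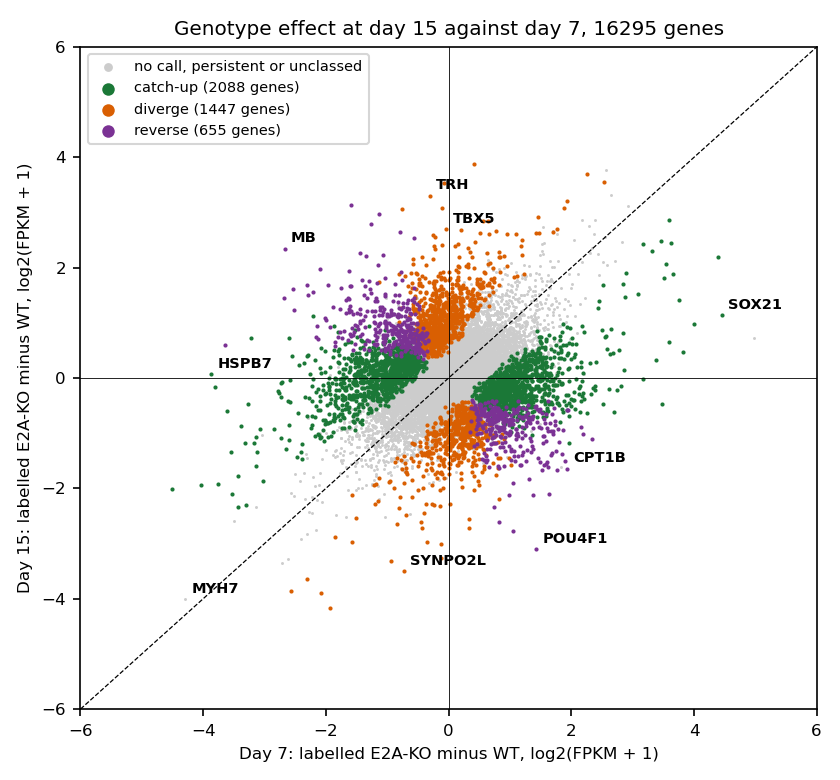
Each point is 1 of 16295 genes, with its day 7 effect on the horizontal axis and its day 15 effect on the vertical axis, both as labelled E2A-KO minus WT on the log2(FPKM + 1) scale. On the dashed diagonal the effects are equal: MYH7 lies near it, MB in the upper left (reversing, interaction 5.02), SOX21 to the right of it (catching up) and SYNPO2L below it (diverging).

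In most of these genes the change between the days passed in the wild type, by the test of day 15 against day 7 within each genotype. That test passed for 3854 genes (23.7%) in the labelled knockout and 7965 (48.9%) in the wild type. Among the 4476 genes with a passing interaction, the change between the days passed in the wild type alone in 2733 and the labelled knockout alone in 669. It passed in both in 911 and in neither in 163. A change that did not pass is not shown to be absent, and the rises and falls counted next are those that passed. Of the 992 genes that caught up from below, 328 rose in the labelled knockout and 725 fell in the wild type. Of the 1096 that caught up from above, 394 fell in the labelled knockout and 758 rose in the wild type. Of the 875 that diverged upward, 171 rose in the labelled knockout and 736 fell in the wild type, and of the 572 that diverged downward, 83 fell in the labelled knockout and 496 rose in the wild type. The courses were most opposed in the reversing genes: of the 344 that ended higher, 146 rose in the labelled knockout and 310 fell in the wild type, with a median course of 0.44 and -1.32 on the log2 scale.

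**Figure D2:**
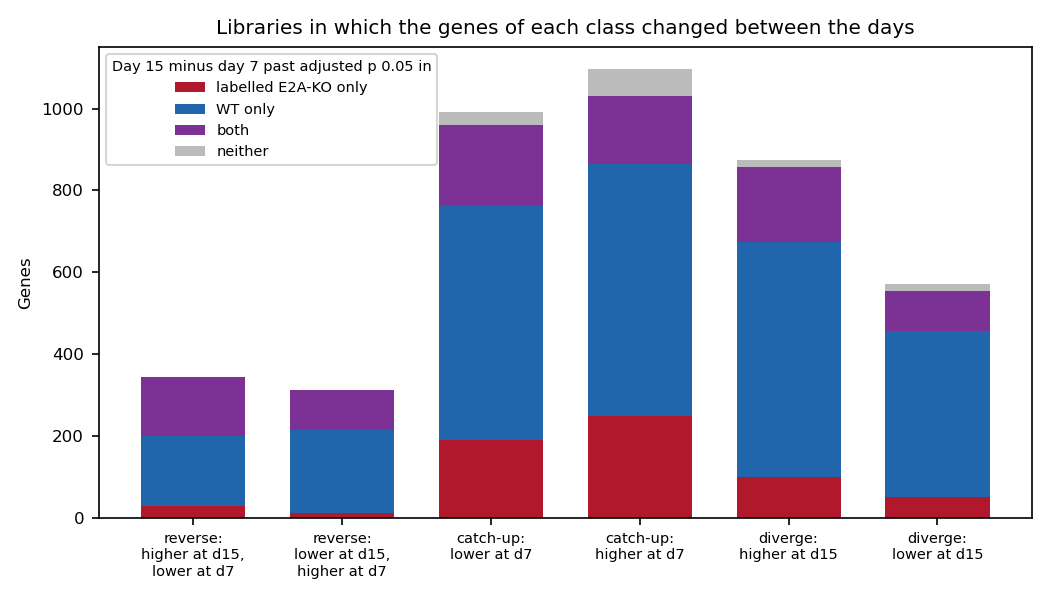
Bars give the number of genes in each class and direction, split by whether the change between day 7 and day 15 passed in the labelled knockout only, in WT only, in both or in neither. The wild type alone is the largest share of each bar, from 170 of 344 genes (49.4%) that reversed to higher at day 15 to 406 of 572 (71.0%) that diverged downward.

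Glycolysis and hypoxia genes were the list with the most reversals from low to high. Of 26 tested members 23 had a positive interaction and 0 a negative one, 16 of them reversing and 7 catching up from below, with a median interaction of 1.89 beside -0.01 over all genes. The median day 15 effect was 0.96 and the median day 7 effect was -1.20. BNIP3, a mitophagy receptor that hypoxia induces, had 124 and 149 FPKM in the labelled knockout and 45.7 and 53.8 FPKM in the wild type at day 15. At day 7 BNIP3 had 41.7 and 43.97 FPKM in the labelled knockout and 134 and 135 FPKM in the wild type. The labelled knockout libraries lay above both wild-type libraries at day 15 and below both at day 7, and the interaction was 3.07 (SE 0.19, limma adjusted p = 9.11e-05).

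HK2, the hexokinase that carries out the entry step of glycolysis in muscle, had 69.2 and 58.05 FPKM in the labelled knockout and 14.3 and 14.7 FPKM in the wild type at day 15. At day 7 HK2 had 24.2 and 22.4 FPKM in the labelled knockout and 53.95 and 51.8 FPKM in the wild type. It rose between the days in the labelled knockout by 1.41 and fell by 1.80 on the log2 scale in the wild type, an interaction of 3.21 (SE 0.19, limma adjusted p = 7.08e-05). P4HA1, a collagen prolyl hydroxylase subunit, had 68.4 and 77.9 FPKM in the labelled knockout and 21.3 and 19.9 FPKM in the wild type at day 15. At day 7 P4HA1 had 49.8 and 46.3 FPKM in the labelled knockout and 129 and 129 FPKM in the wild type, with an interaction of 3.19 (SE 0.17, limma adjusted p = 5.38e-05). The glucose transporter SLC2A3 was among the most abundant, with 934 and 831 FPKM in the labelled knockout and 364 and 355 FPKM in the wild type at day 15. At day 7 SLC2A3 had 627 and 551 FPKM in the labelled knockout and 2243 and 2122 FPKM in the wild type. In these 3 genes as well the groups did not overlap at either day, and the wild type lost most of its day 7 level while the labelled knockout rose.

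Across the list the labelled knockout rose in 19 genes and fell in 0 between the days, where 11.4% of all genes rose and 12.3% fell. The wild type fell in 22 and rose in 2, where 25.1% of all genes fell and 23.8% rose. The passing interactions ran from 0.92 for PFKL, a phosphofructokinase, to 4.05 for PFKFB4, which makes a regulator of that enzyme, both named here as the ends of the range after their values were seen. The 3 members that did not pass were PFKP (0.44, another phosphofructokinase), VEGFA (0.62, a growth factor for vessels) and EGLN3 (-0.13, an oxygen-sensing hydroxylase), likewise named after the fact. Leaving out any 1 library left 21 to 25 members positive and 13 to 18 reversing, and scaling to nuclear genes left 23 and 14.

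The promoters of BNIP3, HK2 and P4HA1 are shown because these genes are among the 4 of the list with the smallest adjusted p, and hypoxia response genes share a short core motif. The sequences are RefSeq's on GRCh38.p14, from 250 bases before to 50 bases after the gene's start, read along the gene's strand, and capitals mark the letters ACGTG or GCGTG on either strand. BNIP3 lies at chr10:131981874-131982173 on the minus strand with 6 matches, a pair of which overlap in CACGTG. HK2 lies at chr2:74833877-74834176 on the plus strand with 3 matches, and P4HA1 at chr10:73096817-73097116 on the minus strand with 1.
BNIP3: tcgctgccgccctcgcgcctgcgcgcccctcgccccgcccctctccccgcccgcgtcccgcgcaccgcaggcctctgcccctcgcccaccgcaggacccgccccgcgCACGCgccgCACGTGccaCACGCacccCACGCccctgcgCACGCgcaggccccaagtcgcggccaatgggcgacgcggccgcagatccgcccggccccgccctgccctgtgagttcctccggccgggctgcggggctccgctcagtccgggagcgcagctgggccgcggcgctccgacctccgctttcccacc
HK2: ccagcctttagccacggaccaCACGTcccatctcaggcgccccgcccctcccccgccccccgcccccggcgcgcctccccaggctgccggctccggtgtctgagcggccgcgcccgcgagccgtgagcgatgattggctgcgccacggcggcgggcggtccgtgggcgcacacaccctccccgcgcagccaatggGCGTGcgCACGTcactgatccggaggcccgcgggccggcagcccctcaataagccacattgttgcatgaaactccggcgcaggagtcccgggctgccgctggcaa
P4HA1: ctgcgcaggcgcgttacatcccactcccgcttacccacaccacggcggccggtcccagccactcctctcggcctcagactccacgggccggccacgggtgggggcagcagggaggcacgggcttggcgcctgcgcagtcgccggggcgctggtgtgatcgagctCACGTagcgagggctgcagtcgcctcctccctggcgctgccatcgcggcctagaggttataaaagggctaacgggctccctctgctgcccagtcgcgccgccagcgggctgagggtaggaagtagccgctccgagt
At least 1 such match was in 12 of the 15 promoters (80.0%) found for the reversing members, in 17 of 23 (73.9%) for the list, and in 13213 of 27305 promoters (48.4%) of the same length in the table. A match describes letters only, and no binding was measured.

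All 13 mitochondrially encoded mRNAs reversed in the other direction. They encode core subunits of the respiratory chain and ATP synthase, and their median effect was -1.14 at day 15 and 1.59 at day 7, a median interaction of -2.74. MT-ND1, a subunit of complex I (mitochondrial genome, 3307 to 4262), had 2112 and 1823 FPKM in the labelled knockout and 5141 and 5137 FPKM in the wild type at day 15. At day 7 MT-ND1 had 3365 and 3346 FPKM in the labelled knockout and 1020.0 and 1077 FPKM in the wild type, an interaction of -3.07 (SE 0.17, limma adjusted p = 6.1e-05). MT-CYB of complex III had 2020.0 and 1853 FPKM in the labelled knockout and 4281 and 5414 FPKM in the wild type at day 15. At day 7 MT-CYB had 1886 and 1752 FPKM in the labelled knockout and 543 and 537 FPKM in the wild type. The groups did not overlap at either day in either gene, with 8 of the 13 falling in the labelled knockout and all 13 rising in the wild type. MT-CO2 of complex IV gave -2.74 and MT-ND2 gave -3.14, and the list ran from -3.44 for MT-ND4L to -2.12 for MT-CO1, named here after its value was seen.

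Transcripts with the MT prefix held 13.9% and 14.3% of summed FPKM in the labelled knockout and 26.1% and 26.2% in the wild type at day 15. At day 7 they held 20.2% and 18.5% in the labelled knockout and 8.55% and 8.14% in the wild type. FPKM of the nuclear genes fall as this share rises, and the scaling to nuclear genes takes it out. All 13 still reversed under it (median -2.94), and 12 or 13 did with any 1 library left out. Reads from nuclear copies of these genes could not be separated. Of 29 nuclear-encoded subunits of the same complexes tested, 5 interactions were positive and 1 was negative, a share of 20.7% beside 27.5% of all genes, and 12 were persistent, with a median day 15 effect of -0.47 and a median day 7 effect of -0.86. Their median interaction of 0.19 was -0.01 after scaling to nuclear genes, and the count of 6 fell to 3 without the trend or without replicate 2 of either genotype at day 7, and to 2 without wild-type day 7 replicate 1. ATP5A1, the alpha subunit of ATP synthase, caught up as the wild type fell, with 272 and 253 FPKM in the labelled knockout and 236 and 236 FPKM in the wild type at day 15. At day 7 ATP5A1 had 272 and 247 FPKM in the labelled knockout and 590.1 and 593 FPKM in the wild type.

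**Figure D3:**
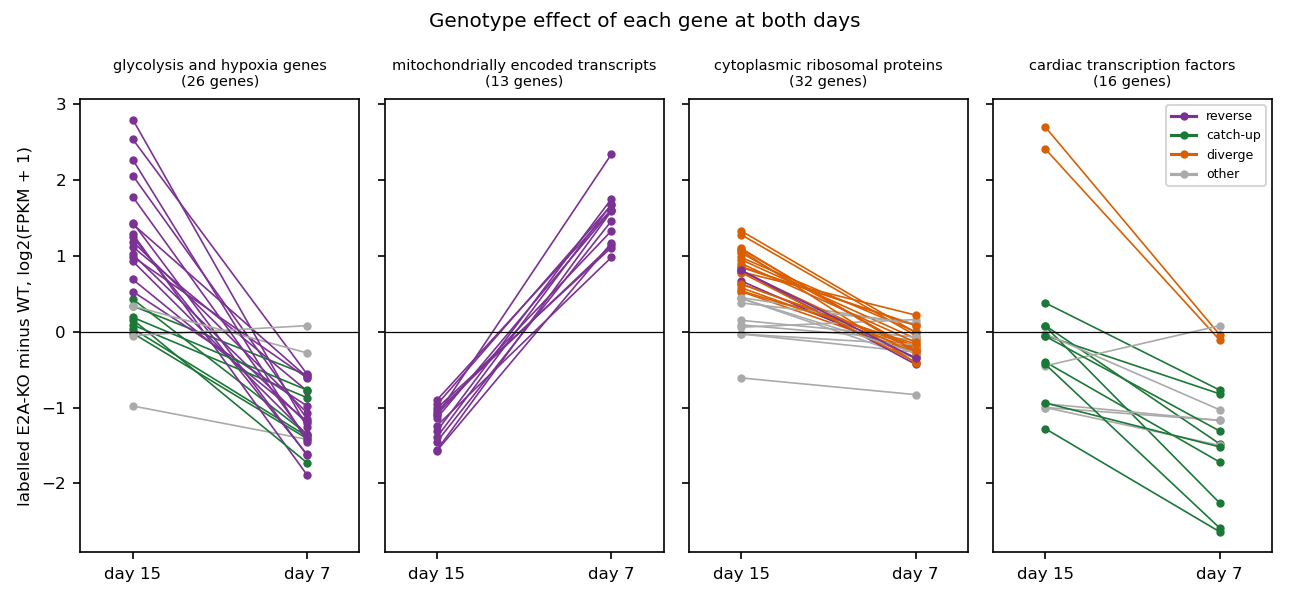
Each line joins the day 15 effect and the day 7 effect of 1 gene (labelled E2A-KO minus WT, log2(FPKM + 1)), coloured by class, for 4 gene lists. Glycolysis and hypoxia genes (16 of 26) and mitochondrially encoded transcripts (13 of 13) cross the zero line in opposite directions, 19 of 32 ribosomal protein genes open a gap upward, and most cardiac transcription factors return towards zero from below.

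The largest reversals among single genes were led by MB, myoglobin, the oxygen-binding protein of heart and red muscle (chromosome 22, 35606764 to 35637951, minus strand). It had 39.5 and 26.99 FPKM in the labelled knockout and 5.76 and 5.49 FPKM in the wild type at day 15. At day 7 MB had 8.66 and 8.36 FPKM in the labelled knockout and 56.8 and 62.7 FPKM in the wild type. The labelled knockout was above both wild-type libraries at day 15 and below both at day 7, as it rose by 1.82 while the wild type fell by 3.20, and the interaction was 5.02 (SE 0.26, limma adjusted p = 5.35e-05).

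MB is shown with its promoter because E proteins bind E-boxes and MB gave the largest interaction of the reversing genes. It lies at chr22:35623305-35623604 on the minus strand of GRCh38.p14 (RefSeq, whose start for MB lies inside the longer GENCODE interval given above), and capitals mark CANNTG, the general E-box, of which there are 2 matches. That motif was in 18824 of the 27305 promoters (68.9%) and in 11 of 23 (47.8%) found for the glycolysis and hypoxia genes. The promoter of MYH6, searched in the same way, had 0 matches. No binding was measured.
MB: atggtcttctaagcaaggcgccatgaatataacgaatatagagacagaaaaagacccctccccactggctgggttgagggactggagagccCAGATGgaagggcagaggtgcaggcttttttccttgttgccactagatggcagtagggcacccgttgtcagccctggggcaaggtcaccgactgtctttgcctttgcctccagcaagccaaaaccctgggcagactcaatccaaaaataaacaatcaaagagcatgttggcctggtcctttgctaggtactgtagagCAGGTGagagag

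CAPN3, the muscle protease calpain 3, had 20.4 and 19.3 FPKM in the labelled knockout and 12.2 and 13.2 FPKM in the wild type at day 15. At day 7 CAPN3 had 4.19 and 4.27 FPKM in the labelled knockout and 65.5 and 63.1 FPKM in the wild type, an interaction of 4.25 (SE 0.19, limma adjusted p = 5.35e-05). RIPPLY3, a repressor that works with T-box factors in pharyngeal development, fell in both genotypes. It had 18.6 and 19.6 FPKM in the labelled knockout and 1.68 and 1.44 FPKM in the wild type at day 15. At day 7 RIPPLY3 had 38.7 and 41.2 FPKM in the labelled knockout and 87.04 and 90.7 FPKM in the wild type, an interaction of 4.11 (SE 0.19, limma adjusted p = 5.35e-05). DLK1, an imprinted NOTCH-related ligand of progenitor cells, followed the same course with changes of -1.56 in the labelled knockout and -5.00 in the wild type on the log2 scale. Its day 15 values were 94.3 and 79.9 FPKM in the labelled knockout and 14.04 and 12.2 FPKM in the wild type. At day 7 DLK1 had 261 and 257 FPKM in the labelled knockout and 435 and 466 FPKM in the wild type. For each of these 3 genes the labelled knockout lay wholly above the wild type at day 15 and wholly below it at day 7.

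Reversals that ended lower at day 15 were led by POU4F1, a POU-homeobox factor of sensory neurons, with 0.487 and 0.605 FPKM in the labelled knockout and 11.3 and 13.3 FPKM in the wild type at day 15. At day 7 POU4F1 had 3.34 and 3.26 FPKM in the labelled knockout and 0.663 and 0.532 FPKM in the wild type. It fell in the labelled knockout and rose in the wild type, an interaction of -4.53 (SE 0.26, limma adjusted p = 6.57e-05). CPT1B, the muscle carnitine palmitoyltransferase that admits long-chain fatty acids to mitochondria, had 18.1 and 17.8 FPKM in the labelled knockout and 55.7 and 60.6 FPKM in the wild type at day 15. At day 7 CPT1B had 25.7 and 28.7 FPKM in the labelled knockout and 6.48 and 6.30 FPKM in the wild type, an interaction of -3.57 (SE 0.19, limma adjusted p = 5.35e-05). CHAC1, a glutathione-degrading enzyme induced by ATF4, had 9.28 and 6.45 FPKM in the labelled knockout and 34.1 and 39.3 FPKM in the wild type at day 15. At day 7 CHAC1 had 8.79 and 10.6 FPKM in the labelled knockout and 2.54 and 2.34 FPKM in the wild type, an interaction of -3.74. In all 3 genes the wild type rose between the days and passed the labelled knockout, with no overlap at either day.

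Of 18 fatty acid oxidation genes tested, 7 interactions were positive and 3 negative, with a median of 0.70, and the median effect was -0.37 at day 15 and -0.83 at day 7. ACSL1, which activates long-chain fatty acids, reversed upward with 11.6 and 10.8 FPKM in the labelled knockout and 3.86 and 3.35 FPKM in the wild type at day 15. At day 7 ACSL1 had 3.89 and 3.58 FPKM in the labelled knockout and 9.57 and 9.61 FPKM in the wild type, an interaction of 2.57 (SE 0.24, limma adjusted p = 3.93e-04). ACADVL, the very-long-chain dehydrogenase, diverged downward: it had 124 and 104 FPKM in the labelled knockout and 259 and 280.0 FPKM in the wild type at day 15. At day 7 ACADVL had 122 and 137 FPKM in the labelled knockout and 92.1 and 106 FPKM in the wild type, and the day 7 effect of 0.38 did not pass. The 7 positive members were 4 without either wild-type library of day 15 or replicate 1 of the labelled knockout at day 7, and 2 without wild-type day 7 replicate 2. The list's 10 passing members fell to 6 without either wild-type library of day 15 or without replicate 1 of the labelled knockout at day 7, and to 4 without wild-type day 7 replicate 2.

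Ion channels of the cardiac action potential gained in the labelled knockout relative to the wild type. Of 14 tested members 11 were positive (78.6% passing, where 14.3% of all genes were positive) and 0 negative, with a median interaction of 1.34. Between the days the labelled knockout rose in 6 of the 14 and fell in 2, where 11.4% of all genes rose and 12.3% fell. The wild type rose in 0 and fell in 6, where 23.8% of all genes rose and 25.1% fell. HCN4, the main channel of the pacemaker current, had 28.4 and 22.3 FPKM in the labelled knockout and 14.98 and 17.4 FPKM in the wild type at day 15. At day 7 HCN4 had 5.64 and 4.74 FPKM in the labelled knockout and 13.2 and 13.6 FPKM in the wild type. It rose by 2.08 in the labelled knockout, while its wild-type course of 0.26 did not pass, and the interaction was 1.83 (SE 0.25, limma adjusted p = 0.00182). KCNJ5, a subunit of the acetylcholine-gated potassium channel, gave an interaction of 2.40 and CACNA1D, an L-type calcium channel of pacemaker cells, gave 1.70. Both were higher in the labelled knockout at day 15 (effects of 0.79 and 1.06) and lower at day 7 (-1.60 and -0.64), with no overlap at either day. CACNA1G, a T-type calcium channel, was higher in the labelled knockout at both days and more so at day 15, where it had 7.77 and 5.99 FPKM in the labelled knockout and 0.167 and 0.392 FPKM in the wild type. KCNA5, an atrial potassium channel, diverged: it had 3.58 and 2.43 FPKM in the labelled knockout and 0.167 and 0.0447 FPKM in the wild type at day 15. At day 7 KCNA5 had 1.81 and 1.78 FPKM in the labelled knockout and 2.18 and 2.13 FPKM in the wild type, and the effect of -0.17 at that day did not pass.

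The count of 11 channels depended on single libraries. It was 7 without wild-type replicate 1 of day 15 or of day 7, 6 without wild-type replicate 2 of either day and 6 without replicate 2 of the labelled knockout at day 7, and 7 with a minimum of 5 FPKM, which tests fewer channels. Sinoatrial node genes, which share some of these channels, had 7 of 12 positive and 0 negative, with a median of 0.89.

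Endothelial genes had 7 of 10 positive and 0 negative, with a median interaction of 1.67 (4 positive with a minimum of 5 FPKM, which tests fewer of them). CDH5, the cadherin of vascular endothelium, had 7.14 and 6.20 FPKM in the labelled knockout and 2.41 and 2.04 FPKM in the wild type at day 15. At day 7 CDH5 had 2.17 and 2.58 FPKM in the labelled knockout and 11.1 and 9.93 FPKM in the wild type, an interaction of 3.02 (SE 0.26, limma adjusted p = 3e-04). EGFL7, a secreted endothelial factor, reversed as the wild type fell by 1.62, with 26.5 and 20.7 FPKM in the labelled knockout and 13.7 and 13.04 FPKM in the wild type at day 15. At day 7 EGFL7 had 25.4 and 25.5 FPKM in the labelled knockout and 40.4 and 46.02 FPKM in the wild type. The sum of the 4 fixed endothelial markers, most of it KDR, did not cross. It was 66.5 and 61.2 FPKM in the labelled knockout and 71.8 and 74.8 FPKM in the wild type at day 15. At day 7 that sum was 61.8 and 54.3 FPKM in the labelled knockout and 97.5 and 90.8 FPKM in the wild type. KDR was lower in the labelled knockout at both days. The other members, CDH5, PECAM1 and TEK, were each higher in the labelled knockout at day 15 and lower at day 7. Of these only CDH5 had day effects that passed.

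BMP pathway genes had 16 of 22 positive (72.7%, beside 14.3% of all genes) and 0 negative, with a median of 0.94. By role, the ligand BMP7 reversed, with 61.98 and 51.9 FPKM in the labelled knockout and 16.7 and 18.8 FPKM in the wild type at day 15. At day 7 BMP7 had 20.6 and 20.2 FPKM in the labelled knockout and 29.1 and 32.2 FPKM in the wild type, an interaction of 2.19 (SE 0.20, limma adjusted p = 3.93e-04). Among targets, MSX1, a homeobox gene that BMP induces, rose in both genotypes and crossed over, with 66.01 and 66.7 FPKM in the labelled knockout and 28.5 and 31.2 FPKM in the wild type at day 15. At day 7 MSX1 had 6.45 and 7.44 FPKM in the labelled knockout and 13.6 and 16.5 FPKM in the wild type. Its relative MSX2 caught up through a rise of 1.68 in the labelled knockout, to 61.2 and 51.2 FPKM in the labelled knockout and 55.01 and 51.2 FPKM in the wild type at day 15, with a day 15 effect of 0.08 that did not pass. The inhibitory SMAD7 and the target ID1 caught up as well, with interactions of 1.76 and 1.28, and in both the wild type fell. The count of 16 was 10 without wild-type day 15 replicate 2 and 8 without either wild-type library of day 7, and 13 after scaling to nuclear genes.

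The E proteins and their ID inhibitors, the family of the targeted gene, had 3 of 7 positive and 0 negative interactions. ID1 had 441 and 389 FPKM in the labelled knockout and 346 and 398 FPKM in the wild type at day 15. At day 7 ID1 had 336 and 311 FPKM in the labelled knockout and 676 and 739.9 FPKM in the wild type, and its interaction of 1.28 passed (SE 0.18, limma adjusted p = 0.00197). The interactions of ID3 (0.70) and ID4 (0.84) passed, but ended with scaling to nuclear genes (limma adjusted p = 0.0654 and 0.0653). That of ID3 also ended without the variance trend (limma adjusted p = 0.0527), and without wild-type day 15 replicate 1 (0.60), replicate 1 of the labelled knockout at day 7 (0.62), and wild-type day 7 replicates 1 (0.81) and 2 (0.60). That of ID4 also ended without wild-type day 15 replicate 2 (0.76), replicate 1 of the labelled knockout at day 7 (0.76), and wild-type day 7 replicates 1 (0.85) and 2 (0.83). ID2 was persistent, with an effect of -0.79 at day 15 and -0.69 at day 7. TCF12, another E protein, had 56.2 and 35.3 FPKM in the labelled knockout and 17.5 and 20.9 FPKM in the wild type at day 15. At day 7 TCF12 had 49.1 and 41.1 FPKM in the labelled knockout and 35.4 and 33.8 FPKM in the wild type, and its interaction of 0.81 did not pass (limma adjusted p = 0.0774), though it did with median-ratio scaling (0.85, adjusted p = 0.0466) and without replicate 2 of the labelled knockout at day 15 (1.14, adjusted p = 0.00806). TCF4 gave -0.08 (limma adjusted p = 0.879).

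Among genes that caught up from below, the largest interaction with close replicates was that of HSPB7, which rose in the labelled knockout. HSPB7, a small heat shock protein of cardiac muscle (chromosome 1, 16014028 to 16019594, minus strand), had 149.8 and 118 FPKM in the labelled knockout and 126 and 127 FPKM in the wild type at day 15. At day 7 HSPB7 had 10.7 and 6.64 FPKM in the labelled knockout and 135 and 140.3 FPKM in the wild type. The labelled knockout rose by 3.82 and overlapped the wild type at day 15, while the wild-type change of -0.12 did not pass, an interaction of 3.94 (SE 0.29, limma adjusted p = 1.43e-04). IGFBP7, a secreted binding protein of insulin-like growth factors, had 51.6 and 40.8 FPKM in the labelled knockout and 53.02 and 49.5 FPKM in the wild type at day 15. At day 7 IGFBP7 had 5.99 and 5.50 FPKM in the labelled knockout and 91.7 and 94.4 FPKM in the wild type, an interaction of 3.65 (SE 0.21, limma adjusted p = 6.1e-05). MASP1, a serine protease of the lectin complement pathway, rose in both genotypes and closed most of its gap on the log2 scale, though not in FPKM. It had 59.02 and 47.3 FPKM in the labelled knockout and 81.6 and 80.2 FPKM in the wild type at day 15. At day 7 MASP1 had 1.17 and 0.818 FPKM in the labelled knockout and 21.9 and 24.7 FPKM in the wild type. In the receptor GPR157 the wild-type libraries of day 7 differed from each other, at 15.1 and 55.8 FPKM, and its interaction of 3.94 has an SE of 0.67. SERPINI1, a neuronal protease inhibitor, gave 3.32 and TIE1, an endothelial receptor kinase, gave 3.33. SERPINI1 had 18.7 and 9.86 FPKM in the labelled knockout and 8.07 and 7.69 FPKM in the wild type at day 15. TIE1 had 7.03 and 3.13 FPKM in the labelled knockout and 2.49 and 1.02 FPKM in the wild type at day 15, where both labelled knockout libraries lay above both wild-type libraries with an effect of 1.12 that did not pass. The labelled knockout replicates of both genes lay apart.

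Among thick filament genes 4 interactions were positive and 2 negative of 8 tested, against 6 positive and 3 negative of 11 thin filament genes. MYH6, the atrial myosin heavy chain, had 959 and 786 FPKM in the labelled knockout and 632 and 702 FPKM in the wild type at day 15. At day 7 MYH6 had 555 and 463 FPKM in the labelled knockout and 1921 and 1848 FPKM in the wild type. The labelled knockout rose by 0.77 and the wild type fell by 1.50, and the day 15 effect of 0.38 did not pass (interaction 2.27, SE 0.20, limma adjusted p = 3.37e-04). MYH6 lies next to MYH7 on chromosome 14 and resembles it, and reads shared by both cannot be placed here. MYL7, the atrial regulatory light chain, closed part of a large gap on the log2 scale, though not in FPKM. It had 1350.0 and 1204 FPKM in the labelled knockout and 5961 and 6584 FPKM in the wild type at day 15. At day 7 MYL7 had 301 and 304 FPKM in the labelled knockout and 2994 and 3007 FPKM in the wild type, an interaction of 1.01 that passed (limma adjusted p = 0.004) but not when all 12 libraries were fitted (adjusted p = 0.113).

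TNNC1, cardiac troponin C, had 238 and 249.7 FPKM in the labelled knockout and 801 and 871 FPKM in the wild type at day 15. At day 7 TNNC1 had 51.6 and 49.9 FPKM in the labelled knockout and 536 and 578 FPKM in the wild type, an interaction of 1.66 (SE 0.15, limma adjusted p = 3.93e-04). TNNI1, the slow skeletal and fetal cardiac troponin I, lost its gap to a day 15 effect of -0.37 that did not pass, against -2.28 at day 7. TNNT2, cardiac troponin T, had 1070.0 and 734 FPKM in the labelled knockout and 1479 and 1622 FPKM in the wild type at day 15. At day 7 TNNT2 had 237 and 182 FPKM in the labelled knockout and 810.2 and 852 FPKM in the wild type, and its interaction of 1.19 ended without wild-type day 15 replicate 1 (1.12, limma adjusted p = 0.0542) or wild-type day 7 replicate 2 (1.15, limma adjusted p = 0.0537). The actin ACTC1 (1.79) and the pointed-end cap TMOD1 (1.91) closed part of their gaps too. In TNNC1, TNNT2, ACTC1 and TMOD1 the labelled knockout stayed below both wild-type libraries at both days.

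Of 14 Z-disc and muscle cytoskeleton genes 4 were positive and 4 negative. ACTN2, the alpha-actinin of the Z-disc, had 91.3 and 70.2 FPKM in the labelled knockout and 289 and 303 FPKM in the wild type at day 15. At day 7 ACTN2 had 15.2 and 12.9 FPKM in the labelled knockout and 121 and 120.4 FPKM in the wild type, an interaction of 1.15 that passed (limma adjusted p = 0.00604) but not with all 12 libraries (0.0831). Of 12 calcium handling genes 5 were positive and 0 negative, a share of 41.7% passing beside 27.5% of all genes. SLC8A1, the sodium-calcium exchanger, rose by 2.87 in the labelled knockout and had 109.8 and 99.9 FPKM in the labelled knockout and 81.1 and 78.2 FPKM in the wild type at day 15. At day 7 SLC8A1 had 15.5 and 11.8 FPKM in the labelled knockout and 73.8 and 67.7 FPKM in the wild type, an interaction of 2.70 (SE 0.21, limma adjusted p = 1.76e-04). At day 15 the labelled knockout lay above both wild-type libraries, with an effect of 0.39 that did not pass. HRC, a calcium-binding protein of the sarcoplasmic reticulum, closed part of its gap (1.12).

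Among chamber genes NPPA, the atrial natriuretic peptide, had 40.2 and 39.7 FPKM in the labelled knockout and 147 and 181 FPKM in the wild type at day 15. At day 7 NPPA had 2.08 and 2.90 FPKM in the labelled knockout and 73.96 and 82.1 FPKM in the wild type, an interaction of 2.50 (SE 0.23, limma adjusted p = 3.93e-04). CKM, the muscle creatine kinase, had 26.4 and 24.1 FPKM in the labelled knockout and 91.8 and 108 FPKM in the wild type at day 15. At day 7 CKM had 2.39 and 2.10 FPKM in the labelled knockout and 49.8 and 54.9 FPKM in the wild type, an interaction of 2.10 (SE 0.21, limma adjusted p = 4.69e-04). Both genes rose in both genotypes, by more in the labelled knockout on the log2 scale and by more in the wild type in FPKM. In both the labelled knockout stayed below the wild type with no overlap.

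Cardiac transcription factors had 11 of 16 positive interactions and 0 negative, 9 catching up and 2 diverging, and leaving out any 1 library left 8 to 11 positive. After scaling to nuclear genes 9 were positive and 1 was negative. NKX2-5, a homeobox factor of cardiac progenitors (chromosome 5, 173232109 to 173235357, minus strand), had 155 and 131 FPKM in the labelled knockout and 123 and 149 FPKM in the wild type at day 15. At day 7 NKX2-5 had 44.8 and 42.5 FPKM in the labelled knockout and 204 and 223 FPKM in the wild type. The groups overlapped at day 15 and lay far apart at day 7, an interaction of 2.34 (SE 0.20, limma adjusted p = 2.55e-04). TBX20, a T-box factor of the chambers, had 20.7 and 20.7 FPKM in the labelled knockout and 19.2 and 19.9 FPKM in the wild type at day 15, an effect of 0.08 that did not pass. At day 7 TBX20 had 11.7 and 8.89 FPKM in the labelled knockout and 30.6 and 30.01 FPKM in the wild type. HAND1, a factor of the left ventricle, gave 1.36 and was still lower at day 15, with an effect of -1.28.

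Epithelial genes had 8 of 13 positive and 1 negative, and the wild type fell in 10 of them. KRT19, a simple-epithelial keratin that also marks epicardium, had 450.1 and 380.0 FPKM in the labelled knockout and 320.5 and 340.1 FPKM in the wild type at day 15. At day 7 KRT19 had 581 and 581 FPKM in the labelled knockout and 2604 and 2638 FPKM in the wild type. The labelled knockout fell by 0.49 and the wild type fell by 2.98, an interaction of 2.50 (SE 0.17, limma adjusted p = 1.14e-04). FOXA2, a forkhead factor of endoderm, fell in both genotypes to 5.85 and 4.86 FPKM in the labelled knockout and 5.45 and 6.96 FPKM in the wild type at day 15. At day 7 FOXA2 had 21.5 and 20.8 FPKM in the labelled knockout and 68.8 and 72.8 FPKM in the wild type. Endoderm genes had 5 of 9 positive and 0 negative, or 3 positive without wild-type day 7 replicate 2. The chemokine receptor CXCR4, in the same list, reversed (2.10), at 9.93 and 12.2 FPKM in the labelled knockout and 4.58 and 5.99 FPKM in the wild type at day 15.

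Matrix genes had 7 of 18 positive and 2 negative, with 11 positive without replicate 2 of the labelled knockout at day 15 and 5 positive without wild-type day 15 replicate 1. COL1A2, a chain of type I collagen, rose in the labelled knockout by 0.89 and the wild type fell by 0.63, with 136 and 118 FPKM in the labelled knockout and 101 and 119 FPKM in the wild type at day 15. At day 7 COL1A2 had 69.6 and 65.6 FPKM in the labelled knockout and 174 and 165 FPKM in the wild type. SPARC, a collagen-binding matricellular protein, closed its gap in the same way (1.51), and COL5A2, a chain of type V collagen, reversed (1.80). LAMA1, a laminin chain of basement membranes, opened a gap downward, with 31.2 and 32.7 FPKM in the labelled knockout and 83.95 and 91.8 FPKM in the wild type at day 15. At day 7 LAMA1 had 119 and 111 FPKM in the labelled knockout and 116 and 109.8 FPKM in the wild type, and the groups overlapped there.

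Genes of the p53 response had 7 of 19 positive and 2 negative, or 5 passing in all without wild-type day 7 replicate 1. The share of this list passing was 47.4%, beside 27.5% of all genes. PHLDA3, an inhibitor of AKT, had 3.04 and 1.94 FPKM in the labelled knockout and 3.82 and 3.77 FPKM in the wild type at day 15. At day 7 PHLDA3 had 0.465 and 0.426 FPKM in the labelled knockout and 12.2 and 13.7 FPKM in the wild type, an interaction of 2.79 (SE 0.29, limma adjusted p = 6.29e-04). CDKN1A, the cell cycle inhibitor p21, fell in the wild type by a log2 change of -1.98 and changed by 0.03 in the labelled knockout, which did not pass, with 0.797 and 0.532 FPKM in the labelled knockout and 2.44 and 3.05 FPKM in the wild type at day 15. At day 7 CDKN1A had 0.776 and 0.487 FPKM in the labelled knockout and 13.2 and 14.2 FPKM in the wild type. TP53I3, an oxidoreductase induced by p53, went the other way: with a day 7 effect of 0.05 that did not pass, it had 9.49 and 11.3 FPKM in the labelled knockout and 26.2 and 36.1 FPKM in the wild type at day 15.

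Genes that caught up from above included several neural factors. SOX21, an HMG-box factor of neural progenitors (chromosome 13, 94709622 to 94712399, minus strand), had 2.11 and 2.71 FPKM in the labelled knockout and 0.464 and 0.631 FPKM in the wild type at day 15. At day 7 SOX21 had 35.7 and 38.3 FPKM in the labelled knockout and 0.595 and 0.877 FPKM in the wild type. The labelled knockout fell by 3.48 while the wild-type change of -0.16 did not pass, and the interaction was -3.32 (SE 0.28, limma adjusted p = 2.49e-04). FOXB1, a forkhead factor of the midbrain and hypothalamus, had 0.567 and 0.334 FPKM in the labelled knockout and 0.979 and 0.0843 FPKM in the wild type at day 15. At day 7 FOXB1 had 10.8 and 9.30 FPKM in the labelled knockout and 0.305 and 0.141 FPKM in the wild type, and the groups overlapped at day 15. VGF, a secreted neuronal peptide precursor, fell by 1.64 in the labelled knockout and rose in the wild type, with 7.15 and 4.57 FPKM in the labelled knockout and 3.45 and 4.29 FPKM in the wild type at day 15. At day 7 VGF had 21.2 and 18.9 FPKM in the labelled knockout and 0.372 and 0.625 FPKM in the wild type, an interaction of -3.34 (SE 0.33, limma adjusted p = 4.69e-04).

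PAX3, a paired-box factor of dorsal neural tube and crest, kept an excess, with 13.3 and 12.9 FPKM in the labelled knockout and 2.10 and 2.06 FPKM in the wild type at day 15. At day 7 PAX3 had 26.6 and 25.04 FPKM in the labelled knockout and 0.342 and 0.204 FPKM in the wild type, an interaction of -2.20 (SE 0.24, limma adjusted p = 7.74e-04). MAP2, a neuronal microtubule protein, gave -1.77 and FABP7, a fatty acid binder of radial glia, gave -1.46. The neural list as a whole was mixed, with 2 positive and 4 negative of 14 and a median of -0.40 beside medians of 1.39 at day 15 and 1.51 at day 7. ZIC1, a zinc finger factor of dorsal neural cells, widened its gap upward, with 42.5 and 37.2 FPKM in the labelled knockout and 4.001 and 4.80 FPKM in the wild type at day 15. At day 7 ZIC1 had 2.46 and 3.32 FPKM in the labelled knockout and 0.247 and 0.575 FPKM in the wild type, and its interaction of 1.46 ended with a pseudocount of 0.1 (0.54, limma adjusted p = 0.436) and with scaling to nuclear genes (1.06, adjusted p = 0.0515). Other genes classed as catching up from above, with large interactions, were the pseudogene RPS20P22 (-3.95), the transcript CTD-2537I9.12 (-3.32) and the small Cajal body RNA SCARNA2 (-3.15). In CTD-2537I9.12 and SCARNA2 the labelled knockout lay below both wild-type libraries at day 15, with effects of -0.61 and -1.19 that did not pass. Reads of a pseudogene cannot be told from those of its parent gene here.

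Mitosis genes had 12 of 20 negative interactions and 0 positive, 8 of them catching up from above (1 to 7 with any 1 library left out, and 1 without wild-type day 7 replicate 2). Between the days 19 of the 20 fell in the labelled knockout, beside 12.3% of all genes, and 14 fell in the wild type, beside 25.1% of all genes. CCNB1, cyclin B1, had 38.02 and 41.8 FPKM in the labelled knockout and 51.7 and 43.99 FPKM in the wild type at day 15. At day 7 CCNB1 had 103 and 123 FPKM in the labelled knockout and 64.5 and 62.8 FPKM in the wild type, an interaction of -1.07 (SE 0.20, limma adjusted p = 0.00608). CENPF, a kinetochore protein, reversed (-1.95), with 18.2 and 12.5 FPKM in the labelled knockout and 36.4 and 34.5 FPKM in the wild type at day 15. At day 7 CENPF had 31.3 and 25.98 FPKM in the labelled knockout and 13.1 and 20.1 FPKM in the wild type. The count of 12 was 5 without wild-type day 15 replicate 2, 7 without replicate 2 of the labelled knockout at day 7, and 6 and 4 without wild-type day 7 replicates 1 and 2. DNA replication genes were mixed, with 4 positive and 3 negative of 20, a share of 35% passing beside 27.5% of all genes. These 7 became 4 or fewer without any 1 library other than replicate 2 of the labelled knockout at day 15.

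Immediate early genes had 6 of 13 negative and 0 positive. EGR1, a zinc finger factor induced by growth signals, had 14.7 and 11.6 FPKM in the labelled knockout and 7.81 and 7.31 FPKM in the wild type at day 15. At day 7 EGR1 had 25.7 and 22.6 FPKM in the labelled knockout and 4.42 and 6.14 FPKM in the wild type, an interaction of -1.30 (SE 0.28, limma adjusted p = 0.011). Its relative EGR3 gave -2.03 and MYC, a growth-promoting transcription factor, gave -1.45. Amino acid and unfolded protein stress genes were split, with 4 positive and 7 negative of 17. Their median interaction of 0.09 was -0.03 after scaling to nuclear genes, -0.11 without wild-type day 15 replicate 1 and -0.08 without replicate 2 of the labelled knockout at day 7. The positive genes numbered 7 without replicate 2 of the labelled knockout at day 15 and 1 without either wild-type library of day 7, and the negative ones 4 without wild-type day 7 replicate 1. ASNS, asparagine synthetase, gave -1.15, PSAT1 of serine synthesis gave -0.89, and DDIT3, a stress transcription factor, gave -1.35. DDIT3 had 13.8 and 11.4 FPKM in the labelled knockout and 30.8 and 37.9 FPKM in the wild type at day 15. At day 7 DDIT3 had 8.86 and 10.7 FPKM in the labelled knockout and 8.81 and 11.1 FPKM in the wild type, and the groups overlapped there. The list's 11 passing genes were 7 without wild-type day 15 replicate 1 or replicate 2 of the labelled knockout at day 7, and 5 and 6 without wild-type day 7 replicates 1 and 2.

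Genes that diverged upward included cardiac regulators. TBX5, a T-box factor of the left ventricle and atria (chromosome 12, 114353931 to 114408442, minus strand), had 26.6 and 17.1 FPKM in the labelled knockout and 2.30 and 2.62 FPKM in the wild type at day 15. At day 7 TBX5 had 4.72 and 4.29 FPKM in the labelled knockout and 4.88 and 4.41 FPKM in the wild type. The groups overlapped at day 7, and the labelled knockout rose by 2.02 while the wild type fell by 0.71, an interaction of 2.73 (SE 0.32, limma adjusted p = 9.29e-04). IRX4, a homeobox factor of the ventricles, had 16.4 and 14.1 FPKM in the labelled knockout and 1.89 and 2.25 FPKM in the wild type at day 15. At day 7 IRX4 had 0.842 and 0.404 FPKM in the labelled knockout and 0.862 and 0.625 FPKM in the wild type, an interaction of 2.52 (SE 0.30, limma adjusted p = 0.00102). CORIN, the protease that activates natriuretic peptides, had 24.7 and 20.9 FPKM in the labelled knockout and 2.41 and 1.35 FPKM in the wild type at day 15. At day 7 CORIN had 3.34 and 1.19 FPKM in the labelled knockout and 3.94 and 4.45 FPKM in the wild type, an interaction of 3.82 (SE 0.46, limma adjusted p = 0.00103). In each of these genes both labelled knockout libraries of day 15 lay far above the wild type.

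TRH, the precursor of thyrotropin-releasing hormone, rose by 3.97 in the labelled knockout, with 31.9 and 29.4 FPKM in the labelled knockout and 1.90 and 2.53 FPKM in the wild type at day 15. At day 7 TRH had 0.862 and 1.19 FPKM in the labelled knockout and 1.53 and 1.45 FPKM in the wild type, an interaction of 3.61 (SE 0.28, limma adjusted p = 1.63e-04). BST2, an interferon-inducible membrane protein, instead fell by 3.92 in the wild type, with 71.6 and 60.7 FPKM in the labelled knockout and 4.28 and 5.27 FPKM in the wild type at day 15. At day 7 BST2 had 88.4 and 75.6 FPKM in the labelled knockout and 87.2 and 84.9 FPKM in the wild type, and the groups overlapped. CLDN10, a tight junction claudin, rose in the labelled knockout and fell in the wild type, with 27 and 31.2 FPKM in the labelled knockout and 1.17 and 0.935 FPKM in the wild type at day 15. At day 7 CLDN10 had 9.77 and 8.41 FPKM in the labelled knockout and 6.55 and 6.51 FPKM in the wild type, an interaction of 3.45 (SE 0.25, limma adjusted p = 1.43e-04).

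HEY1, a NOTCH target of the atria, had 13.6 and 15.4 FPKM in the labelled knockout and 2.94 and 4.05 FPKM in the wild type at day 15. At day 7 HEY1 had 6.90 and 4.88 FPKM in the labelled knockout and 6.59 and 6.24 FPKM in the wild type, and the groups overlapped there. ACTN3, the fast skeletal alpha-actinin, fell by 3.25 in the wild type and gave an interaction of 2.48. LIN28A, an RNA-binding protein of stem and fetal cells, fell in both genotypes, more in the wild type, and had 366 and 333 FPKM in the labelled knockout and 60.6 and 64.3 FPKM in the wild type at day 15. At day 7 LIN28A had 852 and 795 FPKM in the labelled knockout and 619 and 596 FPKM in the wild type, an interaction of 2.02 (SE 0.16, limma adjusted p = 1.65e-04). CRABP1, a cytoplasmic retinoic acid binder, did the same, with 45.04 and 47.1 FPKM in the labelled knockout and 3.27 and 2.05 FPKM in the wild type at day 15. At day 7 CRABP1 had 146 and 152 FPKM in the labelled knockout and 30.5 and 30.4 FPKM in the wild type.

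Of 32 cytoplasmic ribosomal protein genes tested 24 interactions were positive and 0 negative, with a median of 0.82, and 19 of these genes diverged, 3 reversed and 2 fell in no class. With median-ratio scaling 24 were positive, 14 diverging and 8 reversing, and without replicate 1 or 2 of the labelled knockout at day 15 the reversing genes numbered 10. RPLP0, a stalk protein of the large subunit, had 1477 and 1257 FPKM in the labelled knockout and 551 and 568 FPKM in the wild type at day 15. At day 7 RPLP0 had 1675 and 1817 FPKM in the labelled knockout and 1765 and 1845 FPKM in the wild type, an interaction of 1.33 (SE 0.17, limma adjusted p = 0.00151). The labelled knockout changed in 0 of the 32 genes past the threshold, and the wild type fell in 23, beside 25.1% of all genes, and rose in 1. The median effect was 0.72 at day 15, and -0.20 at day 7, which was 0.01 after scaling to nuclear genes, where 20 were positive and diverged and 0 reversed. The count of 24 was 15 without either wild-type library of day 7, and 12 genes diverged without replicate 2 of the labelled knockout at day 15. Ribosomal protein genes have many near-identical pseudogenes, whose reads the authors' counting could split.

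Genes that diverged downward included parts of the muscle cell that rose in the wild type. SYNPO2L, an actin-associated protein of the Z-disc (chromosome 10, 73644881 to 73663803, minus strand), had 12.7 and 11 FPKM in the labelled knockout and 138 and 151 FPKM in the wild type at day 15. At day 7 SYNPO2L had 10.3 and 10.6 FPKM in the labelled knockout and 17.7 and 18.4 FPKM in the wild type. The wild type rose by 2.93 and the labelled knockout change of 0.16 did not pass, an interaction of -2.77 (SE 0.19, limma adjusted p = 1.33e-04). TTN, titin, the spring of the sarcomere (chromosome 2, 178525989 to 178830802, minus strand), had 22.6 and 31.6 FPKM in the labelled knockout and 106 and 113 FPKM in the wild type at day 15. At day 7 TTN had 16.4 and 11.9 FPKM in the labelled knockout and 19.8 and 18.4 FPKM in the wild type, an interaction of -1.57 (SE 0.28, limma adjusted p = 0.00515). The transcript TTN-AS1 from the opposite strand gave -3.02, and since strand was not stated in the sources used here, reads of the pair cannot be told apart.

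DES, desmin, the intermediate filament of muscle, had 3.94 and 3.80 FPKM in the labelled knockout and 65.3 and 78.3 FPKM in the wild type at day 15. At day 7 DES had 2.66 and 2.15 FPKM in the labelled knockout and 12.2 and 14.7 FPKM in the wild type, an interaction of -1.81 (SE 0.25, limma adjusted p = 0.00197). TNNI3, the adult cardiac troponin I, rose in the wild type by 0.80, with 25.04 and 29.02 FPKM in the labelled knockout and 125 and 135 FPKM in the wild type at day 15. At day 7 TNNI3 had 32.1 and 33.8 FPKM in the labelled knockout and 71.04 and 78.2 FPKM in the wild type, an interaction of -1.07 (SE 0.18, limma adjusted p = 0.00433). MYH11, the smooth muscle myosin, had 2.48 and 1.69 FPKM in the labelled knockout and 9.63 and 6.78 FPKM in the wild type at day 15. At day 7 MYH11 had 2.96 and 2.37 FPKM in the labelled knockout and 2.74 and 1.98 FPKM in the wild type, and the groups overlapped. Smooth muscle genes had 2 positive and 4 negative of 9, with 2 negative without wild-type day 15 replicate 2, replicate 1 of the labelled knockout at day 7 or either wild-type library of day 7. Their 4 fixed markers summed to 427 and 355 FPKM in the labelled knockout and 1784 and 1944 FPKM in the wild type at day 15. At day 7 these summed to 158 and 141 FPKM in the labelled knockout and 959 and 989.6 FPKM in the wild type. ACTA2, the smooth muscle actin that early cardiomyocytes also express, closed part of its gap (1.43).

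KRT7, a keratin of simple epithelia, rose in the wild type by 2.64, with 7.76 and 4.62 FPKM in the labelled knockout and 123 and 126 FPKM in the wild type at day 15. At day 7 KRT7 had 3.95 and 4.61 FPKM in the labelled knockout and 17.5 and 20.99 FPKM in the wild type, an interaction of -2.23 (SE 0.31, limma adjusted p = 0.0019). INHBA, an activin subunit, had 2.31 and 2.49 FPKM in the labelled knockout and 28.7 and 34.7 FPKM in the wild type at day 15. At day 7 INHBA had 0.271 and 0.0478 FPKM in the labelled knockout and 0.437 and 0.11 FPKM in the wild type, and it rose in both genotypes, by 1.56 in the labelled knockout and 4.69 in the wild type. TF, transferrin, the iron carrier, had 1.50 and 0.931 FPKM in the labelled knockout and 13.6 and 13.5 FPKM in the wild type at day 15. At day 7 TF had 1.28 and 2.15 FPKM in the labelled knockout and 1.10 and 1.15 FPKM in the wild type. CBLN2, a synaptic organiser, fell in both genotypes and more in the labelled knockout, with 1.32 and 0.963 FPKM in the labelled knockout and 15.3 and 16.8 FPKM in the wild type at day 15. At day 7 CBLN2 had 27.8 and 25.8 FPKM in the labelled knockout and 28.1 and 30.8 FPKM in the wild type, an interaction of -2.87 (SE 0.23, limma adjusted p = 1.95e-04).

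WNT pathway genes had 7 positive and 2 negative of 24, a share of 37.5% passing beside 27.5% of all genes. Among them were the non-canonical ligand WNT11, which caught up (2.51), and WNT5A, which reversed (1.97) as the wild type fell. WNT11 had 22.8 and 19.6 FPKM in the labelled knockout and 35.3 and 44.1 FPKM in the wild type at day 15. At day 7 WNT11 had 1.83 and 4.07 FPKM in the labelled knockout and 34.4 and 43.1 FPKM in the wild type. FZD7, a WNT receptor, fell in both genotypes and diverged downward (-1.11). Retinoid genes had 8 positive and 0 negative of 17, or 5 and 4 without wild-type day 7 replicates 1 and 2, led by RXRG, a retinoid X receptor, with 14.5 and 11.5 FPKM in the labelled knockout and 4.91 and 5.71 FPKM in the wild type at day 15. At day 7 RXRG had 0.468 and 0.852 FPKM in the labelled knockout and 2.55 and 2.44 FPKM in the wild type, an interaction of 2.23 (SE 0.29, limma adjusted p = 0.00158). The share of retinoid genes passing was 47.1%. NOTCH pathway genes had 5 positive and 1 negative of 16, or 3 passing without wild-type day 7 replicate 1. The share passing was 37.5% in NOTCH genes and also in interferon-inducible genes, which had 5 positive and 1 negative of 16. Among the latter B2M, the light chain of class I antigens, closed part of its gap (1.11). Sterol synthesis genes had 5 positive and 0 negative of 18, a share of 27.8% beside 27.5% of all genes, with 8 passing without replicate 2 of the labelled knockout at day 15, 3 without wild-type day 7 replicate 2, and 2 without wild-type replicate 1 of day 15 or of day 7 or without replicate 2 of the labelled knockout at day 7.

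**Figure D4:**
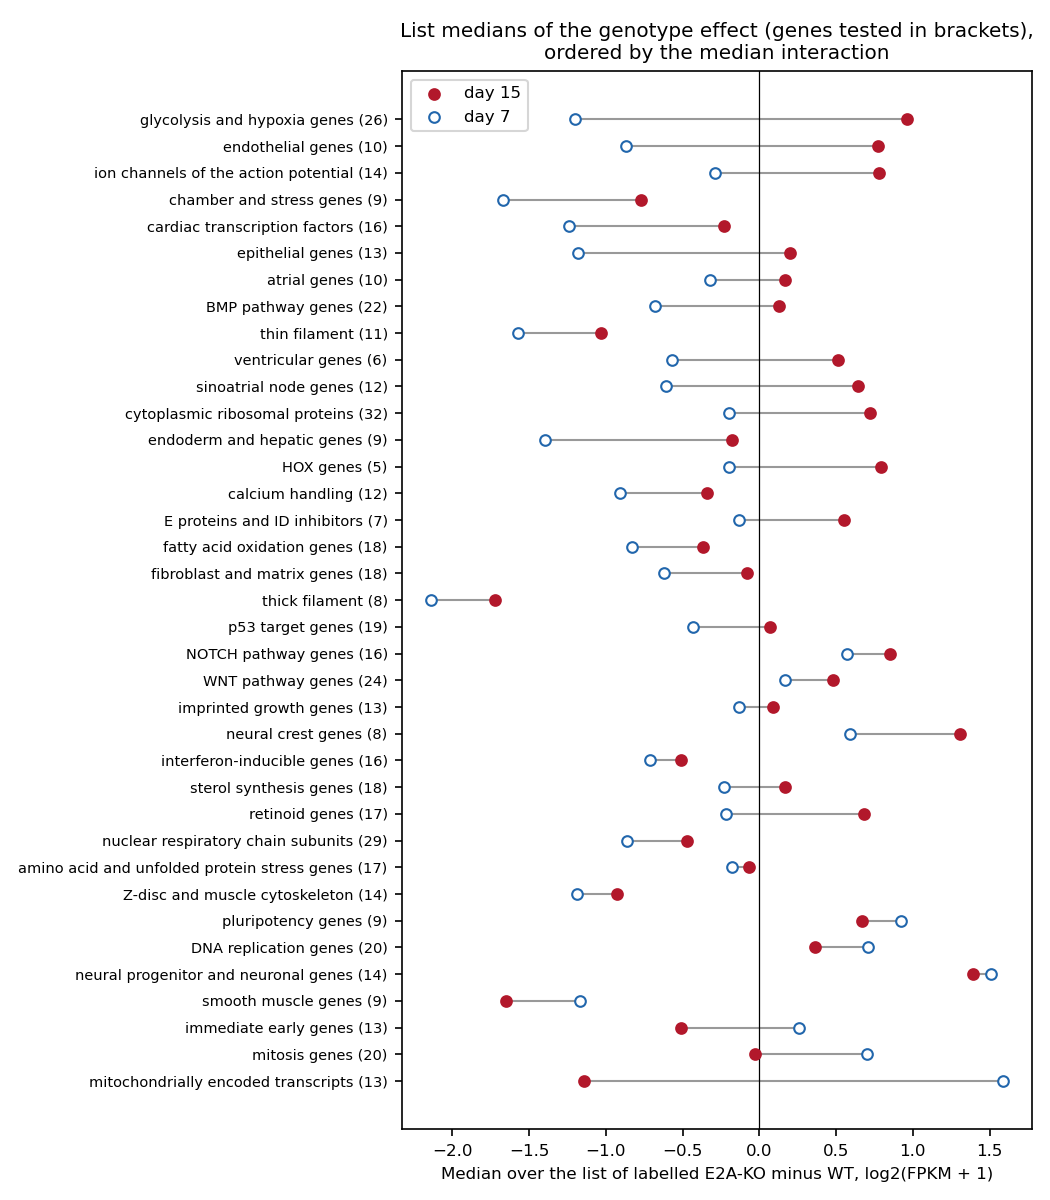
For each gene list, the filled point gives the median day 15 effect and the open point the median day 7 effect (labelled E2A-KO minus WT, log2(FPKM + 1)), ordered by the median interaction, with the genes tested in brackets. Glycolysis genes (0.96 and -1.20) and mitochondrially encoded transcripts (-1.14 and 1.59) stand at the ends, and the signs of the median interaction of nuclear respiratory chain subunits and stress genes, and of the day 7 medians of ribosomal, stress, imprinted and E protein genes, change after scaling to nuclear genes.

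Some of the largest genotype effects showed no passing change between the days. MYH7, the main myosin heavy chain of the ventricles, had 29.9 and 21.9 FPKM in the labelled knockout and 396 and 462 FPKM in the wild type at day 15. At day 7 MYH7 had 0.551 and 0.635 FPKM in the labelled knockout and 31.1 and 29.3 FPKM in the wild type. It rose by 4.06 in the labelled knockout and 3.78 in the wild type, and the interaction of 0.28 (95% interval -0.27 to 0.83, limma adjusted p = 0.42) did not pass, though with a pseudocount of 0.1 it was 1.39 and passed (adjusted p = 0.00671). SOX2, a factor of pluripotent and neural cells, fell in both genotypes and had 39.8 and 55.6 FPKM in the labelled knockout and 6.73 and 8.84 FPKM in the wild type at day 15. At day 7 SOX2 had 153 and 157 FPKM in the labelled knockout and 20.98 and 21.2 FPKM in the wild type, an interaction of -0.36 (95% interval -0.95 to 0.23). NR2F1, of atrial and neural cells, had 16.7 and 15.1 FPKM in the labelled knockout and 0.739 and 1.14 FPKM in the wild type at day 15. At day 7 NR2F1 had 12.2 and 10.9 FPKM in the labelled knockout and 0.929 and 0.407 FPKM in the wild type, an interaction of 0.20 (95% interval -0.51 to 0.91). GATA4, a zinc finger factor of the heart, gave 0.17 (95% interval -0.37 to 0.71) and TBX3, a repressor in conduction cells, gave 0.22 (95% interval -0.30 to 0.74). In all 5 genes the groups did not overlap at either day, and the intervals hold on the log2(FPKM + 1) scale only.

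**Figure D5:**
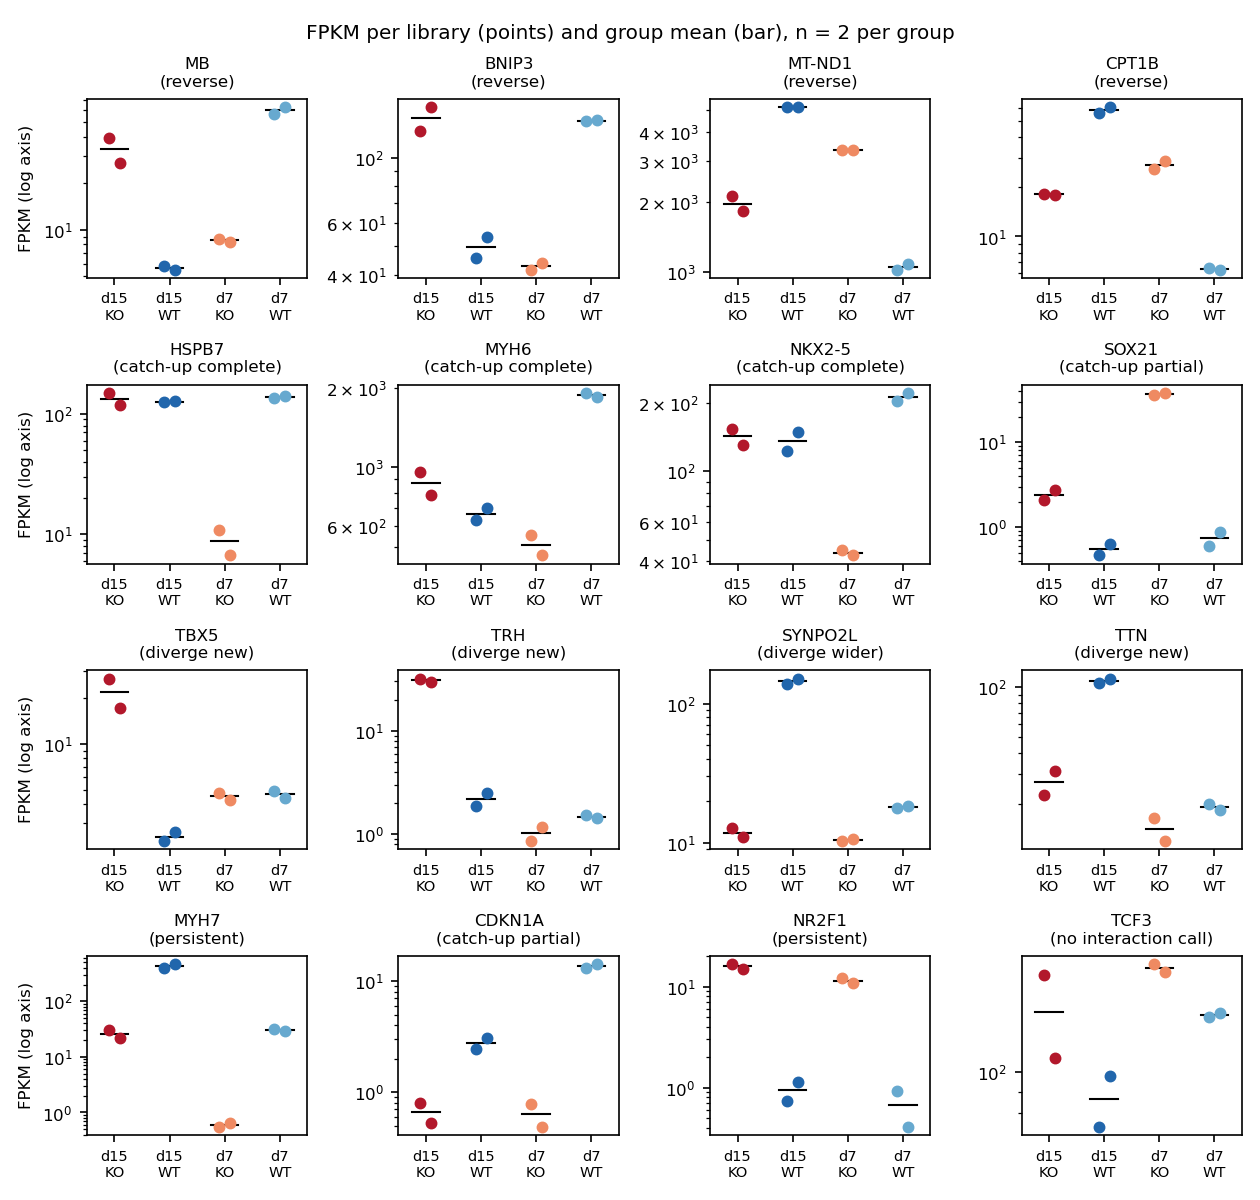
FPKM of 16 genes in each library (points, log axis) with the group mean (bar, n = 2 per group), where KO stands for the labelled E2A-KO libraries and d for day. MB, BNIP3, MT-ND1 and CPT1B cross over between the days, HSPB7, MYH6 and NKX2-5 come close at day 15, TBX5 and TRH split upward, SYNPO2L and TTN split downward, and in MYH7 and NR2F1 the genotypes stay apart at both days.

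Across the 174 genes named by rule, 164 had a passing interaction. The day 15 effect passed for 122 of the 174 and the day 7 effect for 134, where 30.6% and 37.9% of all tested genes passed at those days. In each of those cases the labelled knockout libraries both lay outside the range of the wild-type libraries. These genes were picked for their tests, and those taken by size only where the groups lay apart at each passing day. The counts of separated groups were therefore partly fixed by the rule. They describe these genes and are no measure of how often groups separate, and the share of all genes with separated groups is not given.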

How the data were processed

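RNA from the 8 libraries was measured as one value per gene, FPKM as deposited by the authors (the unit was inferred from the values; per the submitters' processing notes, BWA and the build hg38, also named GRCh38, were used). Counter, annotation, strand setting and depth: not given in the sources used here. The table lists 17096 genes, each above 0 in all 12 libraries. At the best spacing found, 50.0% to 80.0% of low values in a library lay within 0.1 of a whole read, so no counts were rebuilt.

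Values were transformed to log2(FPKM + 1), a pseudocount of 1. Genes reaching 1 FPKM in 2 or more of the 12 libraries were fitted in limma 3.58.1 (R 4.3.3) as 4 group means over 8 libraries, with a mean-variance trend and Benjamini-Hochberg adjustment over 16295 genes at 0.05. Deposited symbols that are dates (22) or repeated (9) were not named. On simulated data with 16201 genes, 100 were changed by 1 and 100 by 2 on the log2 scale. The interaction test recovered 10% and 64% of these, and 6.33% of calls were false. The adjusted threshold depends on how many genes change, and 4476 passed in the data. The recovered shares therefore do not carry over to the data.

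The named genes were a fixed set of regulators and markers, the 6 largest interactions per class and direction with a group mean of at least 5 FPKM and separated groups at each passing day, and up to 4 passing members per list by adjusted p. The members and lists were chosen with earlier results of these data known. Other scalings, filters, pseudocounts, variance priors, the replicate block and leaving out each library were tried. Gene positions are GENCODE 29 on GRCh38, and promoters were matched by symbol for 110 of 174 named genes. Results for some genes that the rule names are not reported here.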

Additional observations from a re-analysis of the deposited data

Results flagged for a closer look

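The 11 genes below stood out because the labelled knockout differed from the wild type in opposite directions at day 15 and day 7, with the difference between the days tested by the interaction (limma, adjusted p below the threshold of 0.05 over all genes). Groups of 2 libraries allow no test for a single deviating sample. Higher in the labelled knockout at day 15 and lower at day 7 were MB, with an interaction of 5.02, CAPN3 (4.25), FAM19A4, a secreted neuronal protein (4.14), the transcript AC009014.3 (4.13) and RIPPLY3 (4.11). Lower at day 15 and higher at day 7 were POU4F1 (-4.53), the ribosomal pseudogene RPS20P33 (-3.84), CHAC1 (-3.74), CPT1B (-3.57), the pseudogene VN1R81P (-3.5) and MT-ND4L (-3.44). Reads of the pseudogenes cannot be told from those of related genes here.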

How the results depend on the processing

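The number of genes with a passing interaction was 4476, and it was 5173 with all 12 libraries in the fit, 4714 scaled to nuclear genes, 4736 with median-ratio scaling, 4456 without a filter, 4005 with a minimum of 5 FPKM, 4374 with a pseudocount of 0.1 and 4362 without the variance trend. Of the 4476 genes none changed sign under these 7 settings except 3 with the pseudocount of 0.1: WNT8B (-0.78, against 0.93), WNT3A (-0.08, against 1.03) and JPH4 (0.76, against -0.84), none of which passed there. Whether replicate numbers pair the samples is not stated, and the main fit used no pairing. Deviations of same-numbered libraries correlated at -0.121 to 0.206, the highest between the labelled knockout groups of day 15 and day 7. With 1 such deviation per group, these correlations cannot decide the question. With the replicate block 4308 genes passed, 4120 of them shared, with no named call changed.

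Leaving out 1 library at a time assumes that the lone sample varies like the other groups. The passing genes then numbered 2334 to 5048, with 1213 to 2841 positive and 1121 to 2207 negative. Catching up from below ran over 463 to 1134 genes and from above over 527 to 1143. Diverging upward ran over 483 to 1054 and downward over 268 to 626, and reversing to higher over 160 to 524 and to lower over 131 to 389. Of the 164 named genes that passed, 0 to 14 lost the call without a given library and none changed sign. With 2 libraries a group, spread is known poorly, and depth is unknown, so no floor can be set for low values.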
